A study of Mus musculus with 12 samples.

Results

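The genes that make acetyl-CoA, place acetyl groups on histones, remove them and read them were followed in T helper 17 (Th17) cells with and without the glucose transporter GLUT3, using a chromatin mark on these genes themselves, acetylated lysines 9 and 14 of histone H3 (H3K9/14ac). They comprised 43 of 21883 protein-coding mouse genes, chosen by symbol: 12 supply genes, 12 writers, 17 erasers and 2 readers. Regions were assigned to a gene when they lay over its span or within 5 kb of it, and gene-end regions when they lay within 2 kb of either end of the span. KO cells were Slc2a3-fl/fl Cd4-cre, in which Cre driven by Cd4 targets the floxed GLUT3 gene Slc2a3 in T cells, and WT cells were labelled wild type; the sources used here do not say whether WT cells carry the Cre. Both groups were C57BL/6 naive T cells cultured for 3 days under Th17 conditions and then stimulated again for 3 h by PMA plus ionomycin while Bref A and Monensin, which block secretion, were present. There were 3 ChIP libraries per genotype, barcoded in the nuclei and pooled into a single immunoprecipitation, and the 6 input samples were left aside. Whether replicates came from separate mice is not stated, so the spread between them may be technical. Values of the 3 libraries of a group are given in the order of replicates 1 to 3.

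Histone acetyltransferases use acetyl-CoA as the donor of the acetyl group, so acetylation depends on the nuclear and cytosolic supply of this metabolite. In activated T cells, glucose carbon reaches it through pyruvate, the mitochondrial pyruvate dehydrogenase complex, citrate synthesis, citrate export and cleavage of citrate by ATP citrate lyase, while acetate can be activated directly by acetyl-CoA synthetases. Deacetylases and sirtuins remove the mark, and bromodomain proteins bind it. The mark itself lies mainly at promoters and enhancers that are in use.

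The libraries differed in mean coverage by genotype. Mean coverage by fragments, solved from the peaks, was 1.85, 2.29 and 1.92 in KO, against 3.99, 3.48 and 2.97 in WT, the KO libraries all below the WT ones (two-sided exact permutation p = 0.1, the smallest p that 3 against 3 libraries can give). As the libraries shared a single immunoprecipitation, coverage may hold both the share of nuclei in the pool and the mark per nucleus. With the inputs left aside these cannot be told apart. A value divided by coverage would lose any difference in the mark that coverage itself holds. Peaks covered 53.7, 58.4 and 55.2 Mb in the KO libraries and 70.5, 65.2 and 66.5 Mb in the WT libraries. KO replicate 3 had 11 peaks on chromosome Y, against 1 or 2 in each of the other libraries. At the targeted gene Slc2a3 the authors' deposited table had 8 of 9 regions lower in KO, and peaks covered 3822, 5427 and 6128 bp in KO, against 12507, 12443 and 12461 bp in WT. At Cd4, which drives the Cre, the gene-end region of lowest false discovery rate was higher in KO in that table. Its log2 fold change was 6.77 (false discovery rate 3.44e-168). Peaks at Cd4 covered 10921, 10639 and 10500 bp in KO, against 9845, 8970 and 9582 bp in WT. The part of the Cre construct in this value was not tested. Each library had peaks at 6 of 6 T cell markers, 5 or 6 of 6 Th17 markers, 3 or 4 of 6 CD8 T and NK markers, 4 of 5 myeloid markers, 1 to 3 of 5 B cell markers and 2 of 4 erythroid markers. Summed peak length was 54373 to 56704 bp in KO and 79217 to 83551 bp in WT over the T cell list, and 70121 to 85577 bp in KO and 176458 to 206256 bp in WT over the Th17 list. It was 8009 to 9917 bp in KO and 13728 to 15022 bp in WT over the myeloid list, and 5840 to 7697 bp in KO and 8264 to 9610 bp in WT over the B cell list. Summed length was 7154 to 7523 bp in KO and 7667 to 8665 bp in WT over the CD8 T and NK list, and 1649 to 3435 bp in KO and 3984 to 4805 bp in WT over the erythroid list. The part of these cells in the results was not tested. In bulk chromatin, fewer cells with a mark and less of the mark per cell cannot be told apart.

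Acetylation over the 43 genes was lower in KO at many regions, at about the rate seen near other genes, and higher at few. A region was called changed when its false discovery rate (FDR) was below 0.05 in the authors' deposited table, whose log2 fold change refers to the best 150 bp window of the region and is negative where KO is lower. A region or gene named further on has this log2 fold change as its value, with the FDR in brackets, and coordinates are those of GRCm38. Of 150 member regions, 64 (42.7%) were lower, 7 (4.67%) higher and 79 not called in the authors' deposited table, against 45.9% lower and 12.1% higher among the 29612 regions near protein-coding genes and 46.3% and 12.7% of all 40909. Of the 59 gene-end regions of the members the authors' deposited table had 29 lower and 2 higher, against 55.3% and 6.17% of 13150. The median log2 fold change was -0.62 over the member regions and -0.62 over all regions of the authors' deposited table. Counted once by the gene-end region of lowest FDR, a choice that favours changed regions, 25 of 40 members (62.5%) in the authors' deposited table were lower and 1 (2.5%) was higher, against 64.3% and 6.4% of 11624 genes. Scaling by mean coverage instead would add an estimated 0.31 to each log2 fold change. The estimate is a median over 2615 regions with a summit near the best window in every library. Such a shift moves the member median to -0.30 and leaves all 64 lower regions negative. Of the 150 regions, 32 also lie within 2 kb of an end of another gene, as do 16 of the 64 lower ones, and the mark there cannot be assigned to 1 gene.

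**Figure D1:**
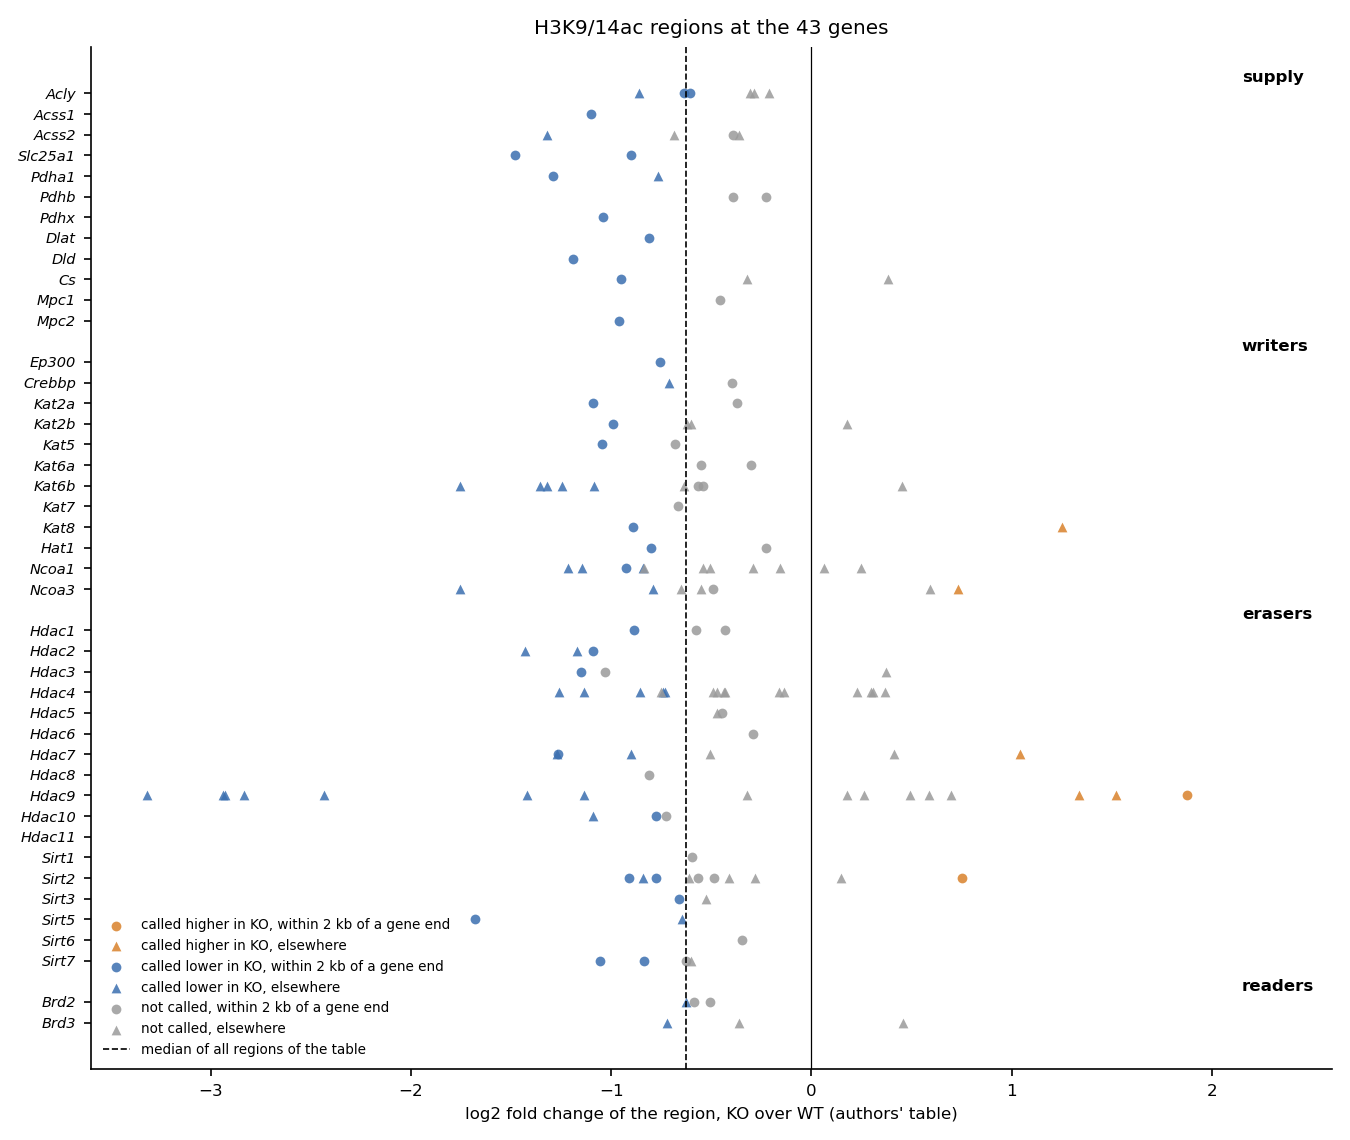
Each point is 1 H3K9/14ac region of a gene (rows, grouped by role), at its log2 fold change of KO over WT from the authors' deposited table (x axis); circles lie within 2 kb of a gene end, triangles elsewhere, and the dashed line is the median of all regions, -0.62. Most regions lie left of 0, and Hdac9 has both the lowest value, -3.32, and the highest, 1.88.

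The supply genes had the largest share of lower regions of the 4 roles. The authors' deposited table had 14 of their 25 regions (56%) lower and 0 higher, and by gene-end region 9 of 12 genes (75%) were lower. Shares over so few genes are a description, set beside 45.9% of regions near genes and 64.3% of genes. Gene-end regions, 15 of the 25, were lower more often over all genes too, at 55.3%. Of these 15 supply regions 11 (73.3%) were lower. Supply genes were marked mostly at their starts: 14 of the 25 regions lay there, with a median width of 2025 bp.

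The pyruvate dehydrogenase complex, which turns pyruvate into acetyl-CoA in mitochondria, had 5 members measured. By gene-end region 4 of the 5 were lower in the authors' deposited table, namely Pdha1, the catalytic E1 alpha subunit on the X chromosome, at -1.29 (FDR 4.62e-08) (chrX:160135951-160139100), Dld, the E3 dihydrolipoamide dehydrogenase, at -1.19 (FDR 1.60e-05) (chr12:31349701-31351800), Pdhx, the E3-binding protein, whose region also touches an end of Apip, at -1.04 (FDR 1.31e-04), and Dlat, the E2 acetyltransferase, at -0.81 (FDR 0.0343). By the same choice of region 64.3% of 11624 genes were lower. Pdhb, which encodes the E1 beta subunit that pairs with the product of Pdha1, was not called, at -0.39 (FDR 0.406) in the authors' deposited table. The promoters of the E1 pair, RefSeq GRCm38.p6, run from 250 bases before the start to 50 after it and are shown because the pair encodes 1 enzyme yet differed in its call. Whether the difference between Pdha1 and Pdhb exceeds their error was not tested. Capitals mark matches to any of the 7 motifs named further on; Pdhb has 3 such matches and Pdha1 has 0.
Pdha1 (chrX:160138381-160138680, minus strand): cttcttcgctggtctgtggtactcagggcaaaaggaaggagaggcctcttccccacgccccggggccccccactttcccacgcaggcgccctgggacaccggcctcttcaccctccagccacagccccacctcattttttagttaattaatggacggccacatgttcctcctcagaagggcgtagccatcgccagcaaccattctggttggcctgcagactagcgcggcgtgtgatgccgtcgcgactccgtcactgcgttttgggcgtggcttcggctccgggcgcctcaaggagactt
Pdhb (chr14:8172943-8173242, minus strand): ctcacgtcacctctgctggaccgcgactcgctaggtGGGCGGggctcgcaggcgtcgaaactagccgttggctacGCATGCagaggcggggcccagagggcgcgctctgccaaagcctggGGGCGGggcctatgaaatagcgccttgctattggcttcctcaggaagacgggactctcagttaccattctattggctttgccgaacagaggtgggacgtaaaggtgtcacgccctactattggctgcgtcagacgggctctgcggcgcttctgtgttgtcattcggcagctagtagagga

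Peak-covered length, the bases under peaks within 5 kb of the gene, gave a second reading of each library. For Pdha1 it was 3086, 3490 and 2972 bp in KO, against 3355, 3903 and 3508 bp in WT, and the groups overlapped (exact permutation p = 0.2). For Dld it was 1625, 1625 and 1625 bp in KO, against 1938, 1851 and 2246 bp in WT, where every KO library lay below every WT library (exact permutation p = 0.1). Another reading was the relative summit height, the fragments piled at the highest gene-end summit divided by the library's mean coverage, which sets it per unit of coverage. A peak counted at a gene end where it touched the 2 kb window, so its summit could lie beyond the window. At Pdha1 it was 57.4, 65.6 and 54.6 in KO, against 54.7, 55.2 and 62.6 in WT, and the groups overlapped. At Dld it was 68.2, 70.0 and 79.5 in KO, against 50.9, 58.1 and 57.6 in WT, so that the summit was higher in every KO library (log2 ratio of means 0.39, exact permutation p = 0.1). The raw piles at Dld were 126, 160 and 153 fragments in KO, against 203, 202 and 171 fragments in WT. The Dld region was thus lower in its best window, which lay 353 bp from the WT summits, while its summit per unit of coverage was higher. Of its 14 windows the authors' deposited table counts 4 going up and 2 going down. KO replicate 3, which had the chromosome Y peaks, had the lowest KO covered length and summit height but the highest KO fold enrichment at the X-linked Pdha1, and its part in the result was not tested.

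Pyruvate enters mitochondria through the carrier formed by Mpc1 and Mpc2. Mpc2 was lower at -0.96 (FDR 2.53e-04) and Mpc1 was not called at -0.46 (FDR 0.266) in the authors' deposited table. Their relative summit heights overlapped between the groups. The Mpc2 region also lies within 2 kb of an end of Dcaf6.

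The citrate route had its lowest value at Slc25a1, the mitochondrial citrate carrier that exports citrate to the cytosol. Its start region (chr16:17926951-17929200) was lower at -1.48 (FDR 2.48e-11), with 15 of 15 windows down, and a region past its other end at -0.90 (FDR 7.83e-04) in the authors' deposited table. Peaks covered 3093, 3538 and 2830 bp in KO, against 5453, 4308 and 5261 bp in WT, 0.630 times as much in KO as in WT, with no overlap (exact permutation p = 0.1). In the start region the relative summit heights were 46.5, 42.4 and 48.8 in KO, against 48.6, 68.4 and 51.8 in WT, and here the groups overlapped (exact permutation p = 0.2). Its promoter is shown since it has the lowest gene-end fold change of the supply genes, and holds 4 GC boxes, some of them on the opposite strand, and 1 E-box in capitals.
Slc25a1 (chr16:17928170-17928469, minus strand): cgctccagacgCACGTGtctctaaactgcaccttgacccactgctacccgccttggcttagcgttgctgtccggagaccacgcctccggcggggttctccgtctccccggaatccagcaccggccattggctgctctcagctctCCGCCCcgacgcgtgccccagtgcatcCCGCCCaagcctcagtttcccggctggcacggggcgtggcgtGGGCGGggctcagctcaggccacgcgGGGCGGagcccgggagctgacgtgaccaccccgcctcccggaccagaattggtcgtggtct

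Cs, citrate synthase, was lower at its start at -0.95 (FDR 6.29e-04) in the authors' deposited table. Its relative summit heights were 118, 126 and 134 in KO, against 104, 114 and 113 in WT, higher in every KO library (exact permutation p = 0.1). Acly, which cleaves exported citrate into acetyl-CoA, had 2 adjoining start regions, both lower, at -0.61 (FDR 0.0349) and -0.64 (FDR 0.0468) in the authors' deposited table. Acly was 1 of 3 members whose relative summit height was lower in every KO library, with 35.2, 31.0 and 28.1 in KO, against 36.6, 40.5 and 37.7 in WT, and its covered length, 4467, 5927 and 5607 bp in KO, against 6221, 5334 and 7037 bp in WT, overlapped (exact permutation p = 0.3).

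The acetate-activating enzymes differed in what was called. Acss1, the mitochondrial synthetase, had a single region, lower at -1.10 (FDR 0.00624) in the authors' deposited table. Peaks covered 931, 1116 and 667 bp in KO, against 1284, 1387 and 1413 bp in WT there, and its relative summit heights were 15.2, 13.6 and 15.1 in KO, against 16.0, 18.1 and 15.5 in WT; both measures were lower in every KO library (exact permutation p = 0.1 each). Acss2, the cytosolic and nuclear synthetase, was not called at its start, -0.39 (FDR 0.325) in the authors' deposited table. Peaks at Acss2 covered 3926, 5038 and 4593 bp in KO, against 5432, 5056 and 5838 bp in WT. This length too was lower in every KO library (exact permutation p = 0.1). Relative summit heights at Acss2 were 26.0, 33.7 and 30.1 in KO, against 29.8, 29.9 and 29.3 in WT, with means of 29.9 ± 3.85 in KO and 29.7 ± 0.332 in WT (SD, n = 3 each). A region inside Acss2 (chr2:155552851-155553450) had a peak in 0 of 3 KO and 3 of 3 WT libraries, and stood at -1.32 (FDR 1.28e-04) in the authors' deposited table. Whether the difference between Acss1 and Acss2 exceeds their error was not tested, since the authors' deposited table holds no value per library.

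**Figure D2:**
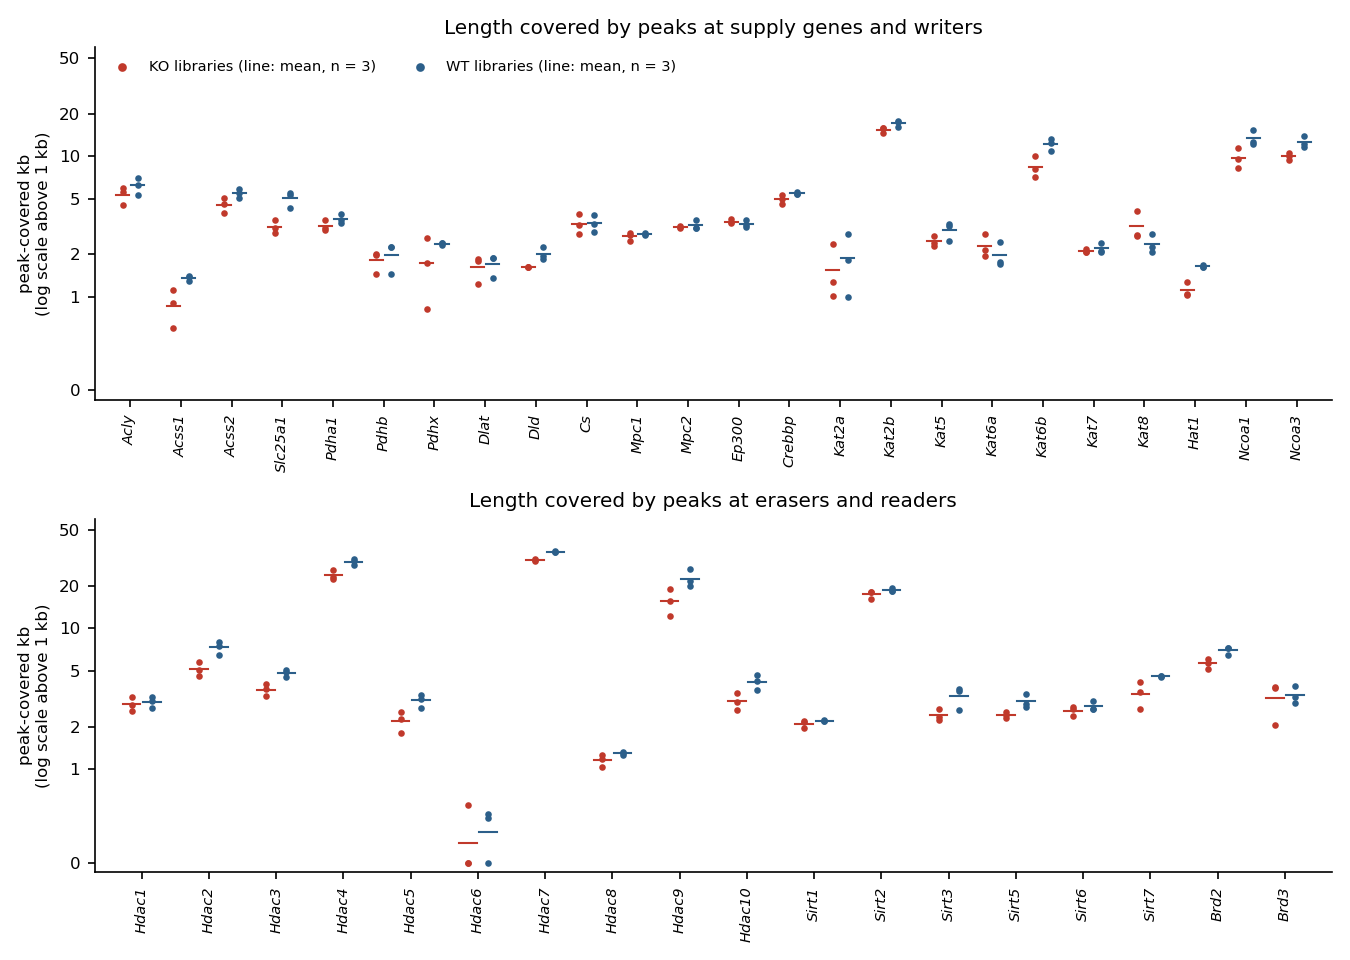
Length covered by peaks within 5 kb of each gene (y axis, kb, linear below 1 kb and log scale above) in the 3 KO (left of each pair) and 3 WT libraries; lines are means. Hdac4 and Hdac7 carry over 20 kb in every library, Hdac11, with 0 bp, is left out, and KO lies below WT without overlap at 21 genes.

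In the authors' deposited table the writers had 18 of 45 regions (40%) lower and 2 higher, and 7 of 12 were lower by gene-end region. Of regions near genes 45.9% were lower and 12.1% higher, and 64.3% of genes were lower by gene-end region. The same shares stand beside the counts of the writer families below. The coactivators Ep300 (p300) and Crebbp (CBP), paralogous acetyltransferases recruited to enhancers, had 1 marked start each. Ep300 was lower at -0.76 (FDR 0.0425) and Crebbp was not called at -0.39 (FDR 0.550) in the authors' deposited table. At Ep300, relative summit heights were 79.0, 90.5 and 79.0 in KO, against 61.2, 72.4 and 60.3 in WT, higher in every KO library although the region was called lower. Peaks covered 3333, 3386 and 3552 bp in KO, against 3223, 3140 and 3514 bp in WT at Ep300, and the groups overlapped (exact permutation p = 0.4). At Crebbp the covered length was 4552, 4964 and 5269 bp in KO, against 5572, 5345 and 5403 bp in WT, lower in every KO library (exact permutation p = 0.1). Part of the Crebbp length belongs to a region past its end, within 2 kb of an end of Trap1, which was lower at -0.71 (FDR 0.00330) in the authors' deposited table.

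Among the GNAT acetyltransferases, Kat2a (GCN5) and Kat2b (PCAF) are paralogs that acetylate H3K9, and Hat1 acetylates newly made histone H4. Kat2a had the lowest gene-end value of the writers, -1.09 (FDR 1.48e-04) in the authors' deposited table, in a region (chr11:100711801-100712550) that also lies within 2 kb of an end of Hspb9. In that region the relative summit heights were 11.9, 13.1 and 13.5 in KO, against 16.3, 22.4 and 25.6 in WT, lower in every KO library. These were small peaks, with piles in that region of 22, 30 and 26 fragments in KO, against 65, 78 and 76 fragments in WT. Covered length at Kat2a spread widely within groups, with 1018, 2389 and 1267 bp in KO, against 1002, 2811 and 1824 bp in WT, and overlapped (exact permutation p = 0.7).

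Kat2b went the other way at its summit. Its first start region, 5250 bp wide, was lower at -0.99 (FDR 0.0243) in the authors' deposited table, with the best window 4569 bp from the WT summits. The relative summit heights were 148, 149 and 133 in KO, against 114, 93.4 and 99.3 in WT, a log2 ratio of 0.49, higher in every KO library. Peaks covered 15974, 15853 and 14658 bp in KO, against 17918, 16072 and 17534 bp in WT, lower in every KO library (exact permutation p = 0.1 for both measures). Hat1 was called lower only in a narrow region just upstream of its start, at -0.80 (FDR 0.00713) in the authors' deposited table. A peak overlapped it in 0 of 3 KO and 3 of 3 WT libraries. Each library had 1 peak at Hat1, with its summit in the adjoining start region, so the WT peaks reached further upstream. The adjoining start region was not called at -0.23 (FDR 0.994) in the authors' deposited table. The summit of that start region was higher in every KO library, with 47.6, 48.1 and 43.7 in KO, against 33.8, 41.1 and 39.1 in WT, and the covered length shorter in every KO library, with 1280, 1030 and 1046 bp in KO, against 1620, 1695 and 1619 bp in WT.

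The MYST family supplies the acetyltransferases of several large complexes. Kat5 (TIP60), the catalytic subunit of NuA4, was lower at -1.04 (FDR 3.99e-04) in the authors' deposited table, with relative summit heights of 45.5, 45.5 and 44.7 in KO, against 37.9, 59.2 and 47.8 in WT that overlapped. Kat7, which acetylates histone H3 at lysine 14, and Kat6a were not called at any region of the authors' deposited table. Kat6b, whose product acetylates histone H3, was not called at its start, but 5 of its 7 regions inside the gene were lower in the authors' deposited table, down to -1.76 (FDR 1.70e-09). The widest of them, 4050 bp, had relative summit heights of 40.0, 39.4 and 39.5 in KO, against 63.4, 74.4 and 56.6 in WT, lower in every KO library. Peaks over Kat6b covered 7096, 8174 and 9968 bp in KO, against 12364, 13245 and 10834 bp in WT, 0.693 times as much in KO as in WT.

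Kat8 (MOF), which acetylates histone H4 at lysine 16, held a lower and a higher region side by side. Its start region was lower at -0.89 (FDR 0.0270), and a 1350 bp region inside the gene, 1587 bp from the nearest listed start (chr7:127914601-127915950), was higher at 1.25 (FDR 9.97e-07), with 9 of 9 windows up, in the authors' deposited table. Relative summit heights in the inner region were 28.7, 27.5 and 28.6 in KO, against 9.78, 12.1 and 10.8 in WT, with means of 28.3 ± 0.626 in KO and 10.9 ± 1.15 in WT (SD, n = 3 each; exact permutation p = 0.1). Every KO library was above every WT library there, by a log2 ratio of 1.38. At the start region they were 35.7, 32.4 and 31.2 in KO, against 32.6, 41.7 and 32.3 in WT, and the groups overlapped.

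The p160 coactivators Ncoa1 and Ncoa3, which bind nuclear receptors and recruit p300, carried 18 regions, and the authors' deposited table had 6 of them lower and 1 higher. Ncoa3 had the higher one inside the gene, 600 bp wide (chr2:166035301-166035900) at 0.73 (FDR 0.0354), and a lower one elsewhere inside it at -1.76 (FDR 1.47e-06) in the authors' deposited table. In the higher region the relative summit heights were 17.9, 25.8 and 19.2 in KO, against 13.5, 12.9 and 8.42 in WT, and in the lower region 18.9, 17.5 and 22.3 in KO, against 31.6, 25.6 and 33.0 in WT. The groups did not overlap in either. Ncoa1 was lower at its start at -0.93 (FDR 5.36e-04) in the authors' deposited table, and its covered length was 9562, 11472 and 8241 bp in KO, against 15350, 12585 and 12319 bp in WT.

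The erasers held 74 of the 150 regions, 40 of them at the class IIa deacetylases. The authors' deposited table had 30 of the 74 (40.5%) lower and 5 (6.76%) higher, and by gene-end region 9 of 15 genes were lower and 1 higher. Of regions near genes 45.9% were lower and 12.1% higher, and of genes by gene-end region 64.3% were lower and 6.4% higher. The region shares also stand beside the counts of the eraser classes below. Class IIa comprises Hdac4, Hdac5, Hdac7 and Hdac9, which bind MEF2 transcription factors and move between nucleus and cytoplasm, and of its 40 regions the authors' deposited table had 15 lower and 4 higher. Peaks over these 4 genes covered 72.6 kb on average in KO and 90.8 kb in WT, and all 4 had a shorter covered length in every KO library, a pattern seen at 41.2% of 14013 genes with a peak.

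Hdac9 held the lowest and the highest fold changes of the 43 genes. At its 3′ end, 3 regions were higher, at 1.34 (FDR 2.68e-07) inside the gene, 1.88 (FDR 8.07e-11) at the gene end and 1.52 (FDR 1.39e-10) past it, with every window up (22, 15 and 38), in the authors' deposited table. In the region past the end the relative summit heights were 79.0, 101 and 92.5 in KO, against 31.3, 34.5 and 34.0 in WT. The region inside the gene had 41.1, 48.5 and 49.9 in KO, against 17.8, 17.0 and 18.5 in WT. Every KO library was above every WT library in both, by log2 ratios of 1.45 and 1.39 (exact permutation p = 0.1 each). The next protein-coding gene on that side, Twist1, lay 87.7 kb from Hdac9.

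Far upstream in the same gene the pattern turned round. Between 355 and 428 kb from the upstream end of the span, 7 regions were lower, down to -3.32 (FDR 2.16e-11), in the authors' deposited table. That stretch of 73.2 kb (chr12:34489201-34562400) held 2, 0 and 0 peaks in KO, against 19, 14 and 12 peaks in WT. Peaks covered 660, 0 and 0 bp in KO, against 12952, 8458 and 8762 bp in WT. KO replicate 1 alone of the KO libraries had peaks there, both narrow, and 4 of the 7 regions had a peak in every WT and no KO library. The listed start within that stretch had peaks within 2 kb in WT replicate 2 only, and the listed start of the full-length gene had none in any library. That full-length promoter is shown for contrast with marked starts: it holds 0 CG pairs, against a median of 21 over the member promoters, and its capitals are a TATAAA match.
Hdac9 (chr12:34917046-34917345, minus strand): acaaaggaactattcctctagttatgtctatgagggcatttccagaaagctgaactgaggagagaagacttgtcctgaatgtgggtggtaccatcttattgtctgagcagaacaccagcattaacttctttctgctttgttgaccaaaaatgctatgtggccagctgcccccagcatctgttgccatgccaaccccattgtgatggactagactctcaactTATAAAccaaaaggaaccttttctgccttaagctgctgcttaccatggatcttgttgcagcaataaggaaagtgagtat

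Over all of Hdac9 the covered length was 15759, 19026 and 12218 bp in KO, against 26314, 20000 and 21691 bp in WT, lower in every KO library. On single-read peaks, which are narrower, the mean was 1248 bp longer in KO instead, with groups that overlapped (exact permutation p = 0.4), so the sign of the sum over Hdac9 depended on the peak list. Peaks over the higher stretch alone covered 12329, 15369 and 10319 bp in KO, against 8072, 7092 and 6779 bp in WT, longer in every KO library.

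**Figure D3:**
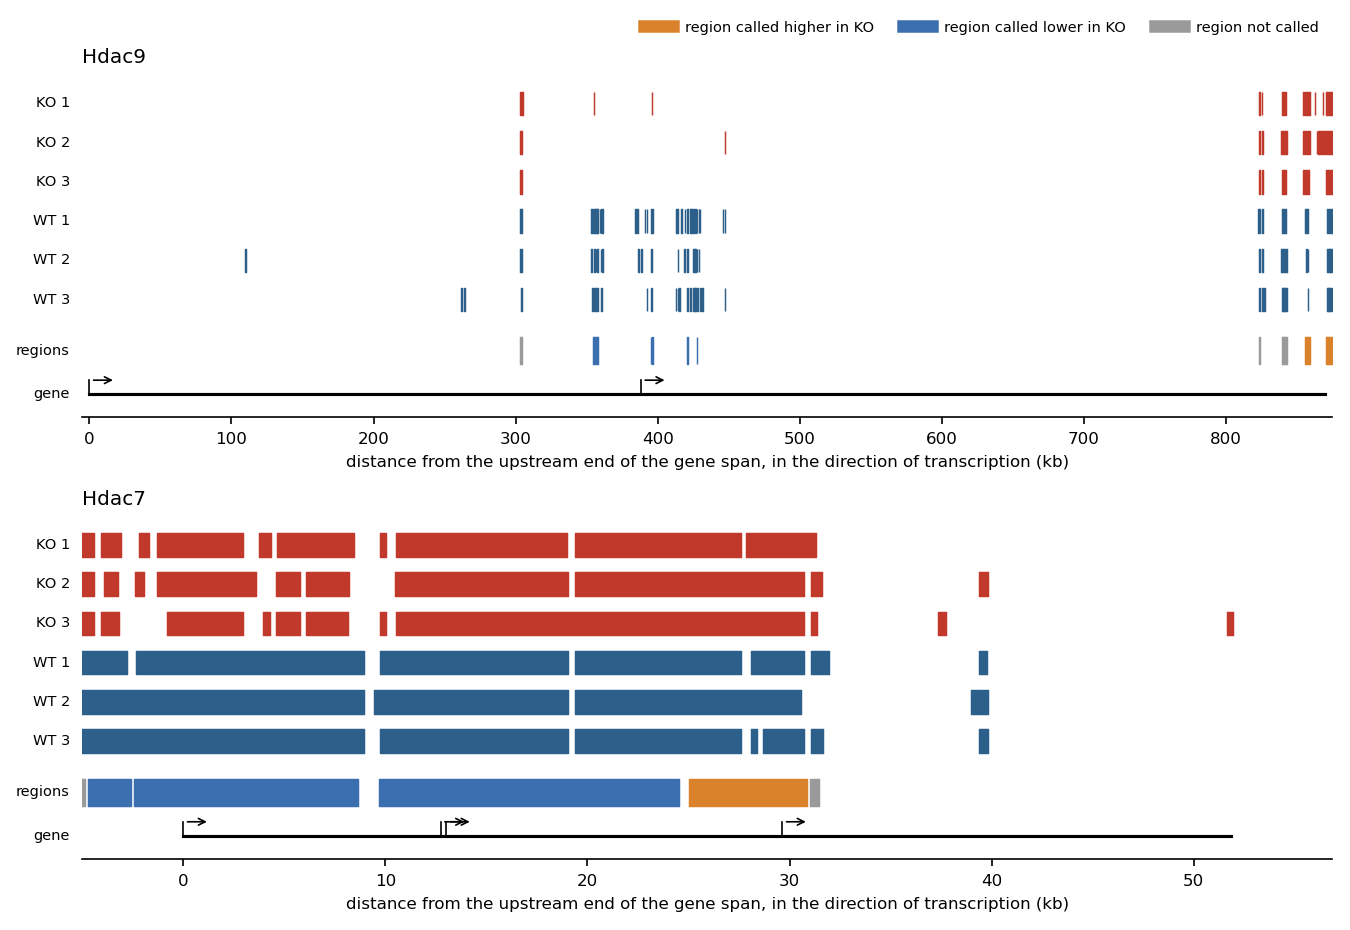
Peaks of each library (rows, KO above WT), regions of the authors' deposited table coloured by call, and listed starts (arrows) along Hdac9 and Hdac7, by distance from the upstream end of the gene span in kb (x axis); narrow peaks are drawn at a minimum width, and the window runs 5 kb past either end. Between 355 and 428 kb Hdac9 is nearly bare in KO and holds 12 to 19 peaks per library in WT, and Hdac7 carries its higher region 25.0 to 30.9 kb from the upstream end.

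Hdac7, a class IIa deacetylase abundant in thymocytes, was also split. Its upstream start lay in an 11100 bp region (chr15:97835851-97846950) that was lower at -1.26 (FDR 2.79e-08), with 73 of 74 windows down, in the authors' deposited table. Relative summit heights in that region were 69.8, 85.3 and 69.1 in KO, against 97.3, 115 and 98.3 in WT, lower in every KO library. Each KO library had 4 separate peaks in it, against 1 long peak in each WT library, and the WT summits lay 5275 bp on average from the best window. The next region, 14850 bp, held the middle pair of listed starts and was lower at -0.90 (FDR 0.00166), with 19 of 99 windows down, in the authors' deposited table. A 5850 bp region around the last listed start (chr15:97813651-97819500) was higher at 1.04 (FDR 8.54e-04), with 10 of 39 windows up and 0 down, in the authors' deposited table. In this last region peaks covered 5583, 5700 and 5700 bp in KO, against 5209, 5580 and 4919 bp in WT. Peaks there were longer in every KO library, by a small margin. Over the whole gene peaks covered 31107, 30805 and 30314 bp in KO, against 34951, 35514 and 34833 bp in WT, lower in every KO library (exact permutation p = 0.1).

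The promoters at the first and last listed Hdac7 starts are shown because they lie in regions called in opposite directions. Capitals mark an AP-1 motif and an NRF1 centre in the downstream one; the upstream one holds no match to the 7 motifs.
Hdac7, upstream start, lower region (chr15:97844453-97844752, minus strand): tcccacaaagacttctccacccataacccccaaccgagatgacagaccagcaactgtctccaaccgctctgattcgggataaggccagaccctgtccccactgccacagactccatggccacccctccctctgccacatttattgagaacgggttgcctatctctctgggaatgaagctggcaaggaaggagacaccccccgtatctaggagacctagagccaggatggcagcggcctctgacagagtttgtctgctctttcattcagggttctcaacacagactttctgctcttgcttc
Hdac7, downstream start, higher region (chr15:97814814-97815113, minus strand): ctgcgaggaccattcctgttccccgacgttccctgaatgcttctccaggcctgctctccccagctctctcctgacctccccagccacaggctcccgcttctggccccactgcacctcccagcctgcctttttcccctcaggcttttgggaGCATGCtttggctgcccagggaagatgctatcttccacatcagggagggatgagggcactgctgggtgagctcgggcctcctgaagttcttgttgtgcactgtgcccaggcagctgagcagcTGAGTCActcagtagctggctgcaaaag

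Of the 16 Hdac4 regions the authors' deposited table had 5 lower, all inside the gene, and 0 higher, and the regions at its starts, which lie over 2 kb inside the annotated span, were not called. The widest lower region, 5250 bp at -1.14 (FDR 3.08e-04) in the authors' deposited table, had relative summit heights of 54.1, 50.7 and 43.1 in KO, against 60.7, 67.0 and 70.4 in WT, lower in every KO library. Hdac5 was not called at either of its 2 regions, and its peaks covered 1805, 2543 and 2256 bp in KO, against 2731, 3347 and 3137 bp in WT, lower in every KO library.

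The class I deacetylases, of which Hdac1 and Hdac2 serve the Sin3, NuRD and CoREST complexes and Hdac3 the NCoR complex, had 5 of 10 regions lower and 0 higher, per the authors' deposited table. The shares over regions near genes were 45.9% and 12.1%. Hdac3 was lower at -1.15 (FDR 4.97e-05) in a region it shares with the ends of Fchsd1 and Rell2, and Hdac2 at -1.09 (FDR 1.82e-05) at its start and -1.43 (FDR 3.61e-10) and -1.17 (FDR 2.44e-04) inside the gene, in the authors' deposited table. At the Hdac2 start the relative summit heights were 144, 137 and 144 in KO, against 121, 129.9 and 137 in WT, higher in every KO library, though KO replicate 2 and WT replicate 3 round to the same value. In the wider inner region they were 35.2, 26.2 and 32.7 in KO, against 55.7, 53.7 and 57.9 in WT, lower in every KO library. The start and the inner region of Hdac2 thus shared a call and differed in their summits. Hdac3 peaks covered 4028, 3700 and 3284 bp in KO, against 5054, 4485 and 4877 bp in WT, lower in every KO library, and its relative summit heights overlapped.

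Hdac1 was lower only past the end of its span that lies near Marcksl1, at -0.89 (FDR 0.00496), and its 2 regions at the opposite end were not called, at -0.43 (FDR 0.270) and -0.58 (FDR 0.0916), in the authors' deposited table. Relative summit heights over those 2 adjoining regions were 40.0, 44.2 and 34.3 in KO, against 32.1, 42.5 and 37.7 in WT, and covered length was 2605, 3259 and 2860 bp in KO, against 2717, 3236 and 3060 bp in WT. Both overlapped (exact permutation p = 0.7 and 0.8). Hdac8, on the X chromosome, was not called at its start region of -0.81 (FDR 0.0836) in the authors' deposited table.

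Hdac6 of class IIb and Hdac11 of class IV were thinly marked. Hdac6, the X-linked tubulin deacetylase, had peaks only in KO replicate 3 and in WT replicates 1 and 2, of 618, 521 and 472 bp. Hdac10, a polyamine deacetylase, was lower in both regions it shares with an end of Mapk12, at -0.78 (FDR 0.0342) and -1.09 (FDR 0.00261) in the authors' deposited table. Hdac11 had no peak in any library and no region in the authors' deposited table.

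Sirtuins, the NAD-dependent deacylases, had 8 of 20 regions lower and 1 higher, per the authors' deposited table, against 45.9% and 12.1% of regions near genes. Sirt5, a mitochondrial desuccinylase, had the lowest gene-end value of the erasers, -1.68 (FDR 1.26e-05), with 8 of 8 windows down (chr13:43365151-43366350), in the authors' deposited table. Relative summit heights there were 42.2, 42.0 and 33.3 in KO, against 36.6, 52.3 and 51.8 in WT, and the groups overlapped (exact permutation p = 0.3). Peaks covered 2535, 2440 and 2290 bp in KO, against 3422, 2766 and 2886 bp in WT, lower in every KO library (exact permutation p = 0.1). Part of the Sirt5 length belongs to a region past its end, within 2 kb of ends of Nol7 and Ranbp9. That region was lower at -0.65 (FDR 0.0281) in the authors' deposited table. The Sirt5 promoter holds 1 GC box in capitals.
Sirt5 (chr13:43365285-43365584, plus strand): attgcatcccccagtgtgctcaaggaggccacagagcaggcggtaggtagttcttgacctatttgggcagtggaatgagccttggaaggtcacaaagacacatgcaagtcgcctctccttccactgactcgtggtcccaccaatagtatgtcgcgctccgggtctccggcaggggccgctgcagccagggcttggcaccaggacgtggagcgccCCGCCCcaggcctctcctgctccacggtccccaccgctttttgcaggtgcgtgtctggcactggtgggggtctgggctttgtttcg

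Sirt1, the nuclear sirtuin that deacetylates histones and transcription factors, was not called at its single region, -0.60 (FDR 0.0879) in the authors' deposited table. Relative summit heights at Sirt1 were 44.9, 35.0 and 29.1 in KO, against 40.4, 43.7 and 39.4 in WT, the KO libraries spreading around the WT ones. Sirt2, mainly cytosolic, had the higher region, at 0.75 (FDR 0.00351) with 7 of 16 windows up, and 3 lower ones inside and past the gene, in the authors' deposited table. That higher region also lies within 2 kb of an end of Nfkbib, and its relative summit heights were 108, 115 and 109 in KO, against 78.5, 103 and 99.7 in WT, higher in every KO library. The 3 lower Sirt2 regions had log2 fold changes of -0.77 to -0.91 in the authors' deposited table, and the 2 near its end lie by Rinl. Sirt3, the main mitochondrial deacetylase, was lower near Psmd13 at -0.66 (FDR 0.0426) and Sirt7, a nucleolar sirtuin, at -1.06 (FDR 1.26e-04) near Mafg, while Sirt6, which removes H3K9 acetylation, was not called near Ankrd24, at -0.35 (FDR 0.910), in the authors' deposited table.

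The BET readers Brd2 and Brd3 bind acetylated histones through paired bromodomains. Brd2 had 3 regions, of which 1 was lower, at -0.63 (FDR 0.0384) near an end of H2-DMa, and Brd3 had 1 lower of 3, at -0.72 (FDR 0.00812), in the authors' deposited table. Relative summit heights at the Brd2 gene end were 173, 146 and 161 in KO, against 102, 159 and 135 in WT, the highest WT mean of the 39 genes measured, and the groups overlapped (exact permutation p = 0.2). Peaks covered 6025, 5697 and 5178 bp in KO, against 6465, 7306 and 7228 bp in WT at Brd2, lower in every KO library, and 2039, 3764 and 3810 bp in KO, against 2957, 3228 and 3887 bp in WT at Brd3, where they overlapped. The start of Brd3 lies inside its annotated span, so Brd3 had no gene-end region.

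Across the 42 genes with a peak, covered length was lower in every KO library than in every WT library at 21 (50%) and higher at 0, against 41.2% and 6.18% of 14013 genes. The summed length over the members was 0.828 times as large in KO as in WT, close to the ratio of 0.827 for all peaks of the libraries. By role the ratio was 0.846 for supply genes, 0.840 for writers, 0.815 for erasers and 0.853 for readers. Lower coverage and shorter peaks went together in the KO libraries, and the part of coverage in these lengths was not tested.

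**Figure D4:**
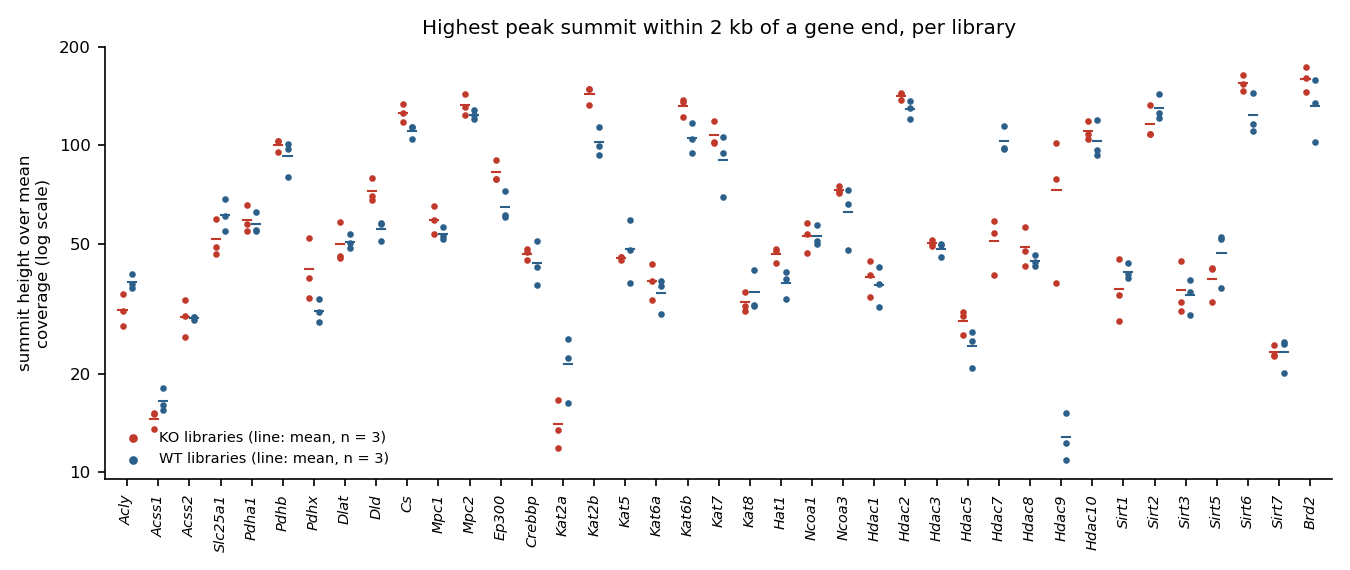
Relative summit height of the highest peak touching the 2 kb around a gene end (y axis, fragments at the summit over mean coverage, log scale) for the 39 genes with such a peak in all 6 libraries, in KO (left of each pair) and WT libraries; lines are means of 3. KO lies above WT without overlap at 10 genes and below it at 3, Acly, Acss1 and Hdac7. The libraries' summits lay in more than 1 region at 8 genes, and up to 7158 bp apart in 1 region at Hdac7.

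Relative summit heights gave another picture than the calls. Of 39 genes with a gene-end peak in all 6 libraries, 10 (25.6%) had a higher summit in every KO library and 3 (7.69%) a lower one, against 18.3% and 17.0% of 10409 genes. The 10 were Pdhx, Dld and Cs of the supply genes, Ep300, Kat2b, Kat6b and Hat1 of the writers, and Hdac2, Hdac9 and Sirt6 of the erasers. At 8 of the 39 the summits of the 6 libraries lay in more than 1 region, namely at Slc25a1, Kat2a, Kat6a, Hdac1, Hdac3, Hdac9, Sirt2 and Sirt7, and at Hdac7 they lay up to 7158 bp apart in 1 region, so at these genes the heights compare different summits. Other genes also had summits apart within 1 region, by up to 1451 bp at Mpc1, 1288 bp at Pdha1, 789 bp at Acly and 533 bp at Acss1. Their heights may compare different summits too. Counting only summits that lie within 2 kb of a gene end, 36 genes were measured in all 6 libraries, of which 9 (25.0%) were higher and 2 (5.56%), Acly and Acss1, lower in every KO library, against 17.9% and 16.8% of 9745 genes. Kat2b and Hdac9 were then not among the higher genes and Sirt2 was. A maximum over fewer fragments scatters more, and its part in these heights was not tested. The 3 lower ones became 5 without KO replicate 1, 6 without KO replicate 2 and 7 without WT replicate 1, where fewer libraries make separation easier. Of 40 member regions called lower in the authors' deposited table with a summit in every library, 11 (27.5%) had a lower summit in every KO library, 7 (17.5%) a higher one and 22 overlapped, against 37.8% lower and 6.32% higher among 9146 such regions of the genome. Over all 87 member regions with a summit in every library, called or not, 11 had a lower and 24 a higher summit in every KO library, against 19.7% and 25.3% of 17957. The best window lay a median of 494 bp from the WT summits in the 40 member regions, against 512 bp in the genome-wide set. All 5 member regions called higher with a summit in every library had a higher summit in every KO library and 0 a lower one, against 91.9% and 0.377% of 1590. Fold enrichment over local background, the authors' own value, was lower in every KO library at 2 of 39 genes (Kat2a and Hdac3) and higher at 3 (Cs, Kat5 and Hdac9), with the same limit on the peak compared, against 8.65% and 6.7% of 10409 genes.

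A difference in whole peaks was rare. At 9 of the 150 member regions (6%) there was a peak in no KO library and in every WT library, and at 0 the reverse, against 5.24% and 2.3% of the 29612 regions near protein-coding genes. They lay at Acss2, Kat6b (2 regions), Hat1, Hdac9 (4 regions) and Brd2, and 8 of the 9 were called lower in the authors' deposited table. In the Hat1 region and a Kat6b region (chr14:21506251-21506700) no library had a summit, so the WT peaks there had their summits elsewhere. All 6 libraries had a peak at 111 of the 150 regions.

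Genes that act with the members were also lower more often than higher. Among 13 of 16 supply regulators with a gene-end region, which include kinases that inhibit pyruvate dehydrogenase, the authors' deposited table had 10 lower and 0 higher, the lowest FDR being that of Aco1, an aconitase, at -1.18 (FDR 3.83e-06). Of 23 writer complex subunits in the authors' deposited table, 16 were lower and 1, Jade2, higher, of 18 eraser complex subunits 14 were lower and 0 higher, and of 11 other readers 6 were lower and 2 higher. Gatad2b and Chd4 of NuRD were at -1.52 (FDR 6.93e-12) and -1.38 (FDR 1.28e-08), and Baz2b, a bromodomain protein, was higher at 1.48 (FDR 5.73e-12), in the authors' deposited table. These shares stand beside the 64.3% lower and 6.4% higher of all genes.

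Promoter sequences from RefSeq were matched for 38 of the 43 genes, 51 starts in all, and the other members are named only. Promoters were searched on both strands for 7 motifs. GGGCGG is the GC box that Sp1 binds. CACGTG is the E-box of MYC and other basic helix-loop-helix factors. GCATGC is the centre of the NRF1 motif. TGANTCA is the AP-1 motif. CACCCCA is part of the sterol response element. TATAAA is the TATA box. ACTTCCG is an ETS motif. A GC box was in 35 of 51 member promoters (68.6%), against 46.2% of 21237 promoters, and TATAAA was in 2 (3.92%), against 12.6%. The other motifs were in 4 to 7 of the 51, from 7.84% to 13.7%, against 6.99% to 8.39% of all promoters. Of 26 starts in regions called lower 18 held a GC box, as did 15 of 19 in regions not called, 1 of 2 in regions called higher and 1 of 4 outside any region. The median number of CG pairs was 22 in the lower starts, 24 in those not called and 13 over all promoters. Matches of different motifs may overlap. Windows of 1 gene can overlap and share bases, and a match is a description of these letters only.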

How the data were processed

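H3K9/14ac ChIP libraries of 3 KO and 3 WT samples were analysed from the authors' peak lists and differential table. The tools listed by the submitters' processing notes are MACS2 2.2.6, Bowtie2 2.3.5.1, deepTools 3.3.2, cutadapt 2.8 and bcl2fastq 2.20.0.422, with GRCm38 and mm10 as builds. Nothing used here states which program made the table, how it scaled libraries, or what control the peaks had. Peaks were called per library. Each deposited peak has -log10 p and q values, a fold enrichment as a linear ratio, and a score. Lists called on paired-end fragments were used, and those on single reads as an alternative. The authors' deposited table lists 40909 regions with an FDR, a p-value and the log2 fold change at the best window. It has no library columns, so its test was taken as deposited. Spans of 24128 regions were deposited; 16569 were rebuilt by joining 150 bp windows under single-read peaks, which rebuilt 98.8% of the deposited spans, 210 were placed by their best window and 2 were not located.

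Summit heights were solved from the deposited fold and -log10 p (100% of peaks within 0.01, tested on simulated data), and mean coverage was read as the lowest background that 50 or more peaks share. WT replicates 1 and 2 needed a height scale of 0.890 and 0.922. The simulated peaks had no such scale and did not reach the largest heights or the lowest coverage, so recovery there was not tested. Counting error of fragments is not included. Spans and starts are from RefSeq GRCm38.p6; an overlap of 1 bp counted. Differences in means were tested by two-sided exact permutation over libraries, which reach no p below 0.1. The members, gene lists and tests were chosen with earlier results of these data known. Per-library values were given for 15 fixed members, the 3 lowest and the highest gene-end fold changes per role, and every member with a higher region; other values were chosen after they were seen. Python 3.11.15 with pandas 2.3.3 and numpy 2.4.6 was used.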

Additional observations from a re-analysis of the deposited data

How the results depend on the processing

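The count of lower member regions, 64, was 50 at an FDR below 0.01, 54 over gene spans only, 29 over gene-end regions only, 34 at a size of 1 or more on the log2 scale, and 14 at that size after coverage scaling, an alternative added after seeing the data. The 7 higher regions became 4 over spans only and 2 over gene-end regions only. The median of -0.62 became -0.30 with coverage scaling. Genes lower by gene-end region numbered 18 to 25 and higher 1 under each alternative. No library could be left out of the authors' deposited table, since it holds no value per library. Genes with covered length lower in every KO library numbered 17 to 24 under other peak lists, spans and the block, and 22 to 26 without 1 library; those higher, 0, became 1 with single-read peaks, span only or the replicate block, and 0 to 2 without 1 library (2 without WT replicate 1, 1 without WT replicate 3). Higher relative summits, 10, ranged from 8 to 15 under the alternatives (added after seeing the data). Lower ones, 3, were 2 with summits within 2 kb of a gene end and 3 to 7 without 1 library (7 without WT replicate 1). Named members with a lower mean fold numbered 7, 12 with single-read peaks and 6 to 11 without 1 library (11 without KO replicate 1); with lower mean covered length, 19 to 21. Over 230 alternative values of covered length of single genes, 7 changed sign, and over 196 of fold, 25 did. Replicate numbers paired the libraries weakly at most: deviations of same-numbered libraries correlated at 0.016, 0.045 and 0.034 over 10409 genes. Those of differently numbered libraries correlated at -0.041 to 0.0064, so each KO replicate correlated best with its own WT number. Whether the numbers mark pairs was not tested. With the replicate block, 24 genes had lower covered length in each pair, 13 higher and 5 lower relative summits, and a sign-flip test over 3 pairs reaches no p below 0.25. Coverage was lower in KO, and what it costs in narrow peaks was not tested; 3 libraries per group limit every exact test.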
